A study of Mus musculus with 6 samples.

Results

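Immediate early genes are the genes a neuron switches on first when it is excited, and their RNA is read here in a small hypothalamic nucleus beside 2 regions of the same brains. The members are Fos, Fosb, Junb, Egr1, Egr2, Egr3, Egr4, Arc, Npas4 and Nr4a1. They were chosen by name and make up 10 of the 22180 genes that the array annotation names with a single symbol. Each of them is measured by 1 probe set, which is a group of short DNA probes for the same transcript. The arrays were hybridized with RNA of the parvafox nucleus, of the cerebral cortex (piriform and entorhinal) and of hippocampus (fields CA2 and CA3) of mouse 511 and of mouse 355, each region of each animal on its own array, 6 in all. Both mice were adult C57BL/6 animals killed by cervical dislocation, and the labels name no treatment. The parvafox nucleus is a narrow group of parvalbumin and Foxb1 neurons that follows the fornix through the lateral hypothalamus. It was cut out by laser at a place found by a lectin stain for perineuronal nets on neighbouring sections, so each sample holds every cell type inside the outline, and its RNA was amplified before hybridization.

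In neurons, synaptic excitation lets calcium enter through NMDA receptors and voltage-gated channels and activates CaM kinases and the MAP kinase cascade. These phosphorylate CREB and the ternary complex factors, such as Elk1, that sit with serum response factor on the promoters of immediate early genes, so transcription starts within minutes and needs no new protein. Most of the products are transcription factors themselves: Fos, FosB and JunB are subunits of the dimeric factor AP-1, the Egr proteins are zinc finger factors, Npas4 is a neuronal basic helix-loop-helix factor and Nr4a1 is an orphan nuclear receptor. Arc is the exception, a protein of the synapse that removes AMPA receptors from the membrane. The RNAs are short-lived, and their level in a brain is known to follow the recent activity of the region, which is why they are used to map active neurons.

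Promoters of the members are printed here because CREB and serum response factor are known to act on promoters of immediate early genes. Sites further than 250 bases before a start are not covered. RefSeq promoters of build GRCm38.p6, running from 250 bases before to 50 bases after a start, were matched by gene ID. They covered 7 of the 10 members, with 11 promoters among them since Egr2 has 5. For Egr1, Egr3 and Arc no promoter was available, so these genes were not searched. Capitals mark the core of the cAMP response element, TGACG, and the Egr site, GCGTGGGCG or GCGGGGGCG, on either strand, so that a core on the opposite strand reads CGTCA. The sequences are those of Fosb and Egr4, whose signal was lowest in the nucleus of both mice, of Junb and Nr4a1, whose signal was highest in hippocampus of both mice, and of Fos, which had no common order of regions.
Fosb, chr7:19309996-19310295, minus strand: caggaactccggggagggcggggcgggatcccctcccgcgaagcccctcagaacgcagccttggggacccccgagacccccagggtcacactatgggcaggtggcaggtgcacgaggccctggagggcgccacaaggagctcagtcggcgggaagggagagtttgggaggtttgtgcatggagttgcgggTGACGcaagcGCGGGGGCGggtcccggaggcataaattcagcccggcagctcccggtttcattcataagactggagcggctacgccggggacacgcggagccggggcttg
Egr4, chr6:85513540-85513839, minus strand: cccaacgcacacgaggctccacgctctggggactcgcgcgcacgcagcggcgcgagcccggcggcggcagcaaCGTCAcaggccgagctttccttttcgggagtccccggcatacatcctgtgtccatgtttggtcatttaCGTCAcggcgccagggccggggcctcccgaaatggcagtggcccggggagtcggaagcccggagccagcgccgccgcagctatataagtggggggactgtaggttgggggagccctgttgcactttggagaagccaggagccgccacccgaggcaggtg
Junb, chr8:84978699-84978998, minus strand: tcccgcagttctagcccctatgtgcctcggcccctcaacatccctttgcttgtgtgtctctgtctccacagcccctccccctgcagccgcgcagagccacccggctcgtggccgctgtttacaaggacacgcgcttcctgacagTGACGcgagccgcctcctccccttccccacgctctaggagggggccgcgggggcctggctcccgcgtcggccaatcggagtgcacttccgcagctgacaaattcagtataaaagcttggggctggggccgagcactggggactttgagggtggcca
Nr4a1, chr15:101266596-101266895, plus strand: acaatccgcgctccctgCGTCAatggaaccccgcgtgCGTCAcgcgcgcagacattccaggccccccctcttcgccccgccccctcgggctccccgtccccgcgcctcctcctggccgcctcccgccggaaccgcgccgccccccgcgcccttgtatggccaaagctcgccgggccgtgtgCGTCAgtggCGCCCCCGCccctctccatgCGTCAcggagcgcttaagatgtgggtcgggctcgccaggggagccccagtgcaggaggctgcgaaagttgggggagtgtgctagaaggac
Fos, chr12:85473640-85473939, plus strand: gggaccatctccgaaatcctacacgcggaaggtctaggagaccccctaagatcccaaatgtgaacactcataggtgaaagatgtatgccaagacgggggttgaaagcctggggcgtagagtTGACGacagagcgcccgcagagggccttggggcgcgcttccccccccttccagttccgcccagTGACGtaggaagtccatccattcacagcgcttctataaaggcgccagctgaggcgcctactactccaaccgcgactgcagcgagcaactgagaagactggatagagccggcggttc

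Each of the 7 members with a promoter in the table carried the core TGACG in at least 1 promoter, whereas 20.8% of all 32851 promoters of this length did. Nr4a1 held 4 of them, beginning at -233, -213, -69 and -40 from the start, and 0.231% of all promoters held as many. Fos held 2, beginning at -129 and -66, and Egr4 held 2, at -177 and -109, a number reached by 5.01% of all promoters. Npas4 held 2 as well, at -179 and -169. Fosb had a single core at -60 and Junb a single one at -106. The complete palindrome TGACGTCA, which contains the core, was in none of the members' promoters and in 1.79% of all. An Egr site, the motif the 4 Egr factors bind, was found in 2 of these 7 members and in 3.47% of all promoters. It began at -50 in Fosb and at -60 in Nr4a1. A CArG box, the motif of serum response factor, was found in 1 of these 7 members, Egr2, and in 1.63% of all promoters. Egr2 had several promoters searched, whereas that share counts single promoters. The AP-1 site, TGACTCA or TGAGTCA, was in none of these members' promoters and in 5.2% of all. A match of letters is a description of the sequence and was not tested as a binding site.

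Over the 10 members together, the nucleus gave less signal than the other regions. The mean log2 signal of the members was 6.02 and 5.59 in the nucleus of mouse 355 and mouse 511, against 6.23 and 6.77 in cortex and 6.59 and 6.71 in hippocampus. The median signal of all probe sets lay between 3.54 and 3.68 on the 6 arrays, which RMA had made alike in their distribution. The median difference of the members between nucleus and cortex was -0.64 on the log2 scale, against 0.027 over all probe sets, and between nucleus and hippocampus it was -0.75, against 0.042. Between cortex and hippocampus the median of the members was -0.04, against 0.016 over all probe sets. In captured tissue, fewer cells of a type and less RNA per cell cannot be told apart, and this holds for every regional difference given here.

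**Figure D1:**
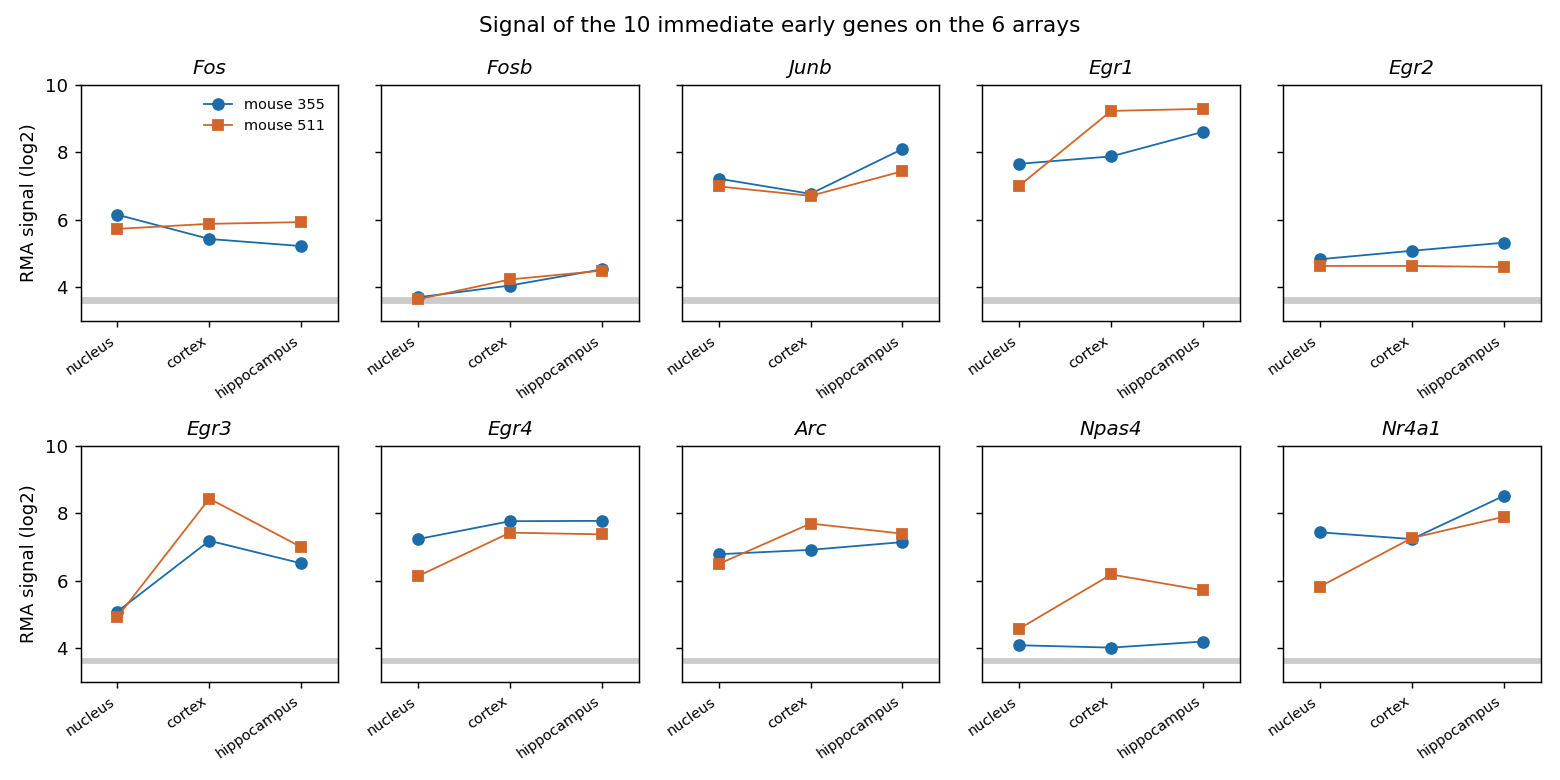
Signal of each immediate early gene (y axis, log2 of the RMA signal) in the nucleus, cortex and hippocampus (x axis), with a blue circle for mouse 355 and an orange square for mouse 511 joined by lines, and a grey band for the medians of the 6 arrays (3.54 to 3.68). Egr3 stands between 4.92 and 5.08 in the nucleus and at 6.51 or above elsewhere, and Fosb lies close to the grey band in the nucleus.

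Egr3 and the other Egr genes encode zinc finger factors that bind the same GC-rich site, and Egr3 is known for its part in memory and in muscle spindle formation. The signal of Egr3 was 5.08 in the nucleus of mouse 355 and 4.92 in that of mouse 511, against 7.18 and 8.43 in cortex and 6.51 and 6.99 in hippocampus. The nucleus lay below hippocampus, and hippocampus below cortex, with no overlap of the mice between any regions. The nucleus was 4.3-fold lower than cortex in mouse 355 and 11.4-fold lower in mouse 511, and 2.7-fold and 4.19-fold lower than hippocampus. Over both mice the difference was -2.81 against cortex (standard error, SE, of 0.37, limma adjusted p = 0.31) and -1.75 against hippocampus (SE 0.37, limma adjusted p = 0.311), so neither passed the threshold of 0.05 after adjustment over all 41345 probe sets. Egr3 had the widest range of the 10 members over the 6 arrays, at 3.51.

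Egr1, the family member most often used to mark active neurons, and Egr4 were also lowest in the nucleus of both mice. Egr1 had signals of 7.66 and 7.01 in the nucleus of mouse 355 and mouse 511, against 7.88 and 9.23 in cortex and 8.61 and 9.29 in hippocampus. The nucleus stood below both regions, while cortex and hippocampus overlapped, and cortex of mouse 355 was 0.22 above the nucleus of the same animal. The difference of Egr1 over both mice was -1.22 against cortex (SE 0.50, limma adjusted p = 0.65) and -1.62 against hippocampus (SE 0.50, limma adjusted p = 0.445). Egr4 had 7.23 and 6.13 in the nucleus, against 7.76 and 7.42 in cortex and 7.77 and 7.37 in hippocampus. Its nucleus values lay below the other regions, which overlapped, and the differences were -0.92 against cortex (SE 0.26, limma adjusted p = 0.565) and -0.89 against hippocampus (SE 0.26, limma adjusted p = 0.43). Egr2, which outside the brain directs myelination by Schwann cells, had 4.83 and 4.63 in the nucleus, 5.08 and 4.63 in cortex, and 5.32 and 4.60 in hippocampus. The regions overlapped for Egr2, and in mouse 511 they lay within 0.03 of each other. Its differences were -0.12 against cortex (SE 0.22, limma adjusted p = 0.922) and -0.23 against hippocampus (SE 0.22, limma adjusted p = 0.802).

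The subunits of AP-1 differed from each other in their order of regions. Fos had 6.15 in the nucleus of mouse 355 and 5.73 in that of mouse 511, against 5.43 and 5.88 in cortex and 5.22 and 5.93 in hippocampus. The nucleus of mouse 355 was the brightest of the 6 arrays and hippocampus of the same mouse the dimmest, and in mouse 511 the order was turned round with all regions within 0.20. The difference of Fos between nucleus and cortex was 0.29 (SE 0.33, limma adjusted p = 0.871) and between nucleus and hippocampus 0.37 (SE 0.33, limma adjusted p = 0.787). Fosb, whose splice form ΔFosB builds up under repeated stimulation, had 3.70 and 3.64 in the nucleus, against 4.05 and 4.23 in cortex and 4.53 and 4.49 in hippocampus. Its regions did not overlap, in the order hippocampus, cortex, nucleus, but the nucleus values were close to the medians of those arrays, 3.68 and 3.64. The difference of Fosb was -0.47 against cortex (SE 0.19, limma adjusted p = 0.647) and -0.84 against hippocampus (SE 0.19, limma adjusted p = 0.332). Junb had 7.22 and 6.99 in the nucleus, against 6.77 and 6.71 in cortex and 8.10 and 7.44 in hippocampus. Of the 10 members 1, Junb, was brighter in the nucleus than in cortex of both mice, whereas 29.1% of all probe sets were. Its difference from cortex was 0.36 (SE 0.23, limma adjusted p = 0.757) and that from hippocampus was -0.67 (SE 0.23, limma adjusted p = 0.492).

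Npas4, Nr4a1 and Arc complete the set. Nr4a1, a nuclear receptor that acts without a known hormone and can pair with retinoid X receptors, had 7.43 and 5.82 in the nucleus of mouse 355 and mouse 511, against 7.23 and 7.26 in cortex and 8.51 and 7.89 in hippocampus. The nucleus was 2.11-fold lower than hippocampus in mouse 355 and 4.2-fold lower in mouse 511, whereas nucleus and cortex overlapped. The difference of Nr4a1 against hippocampus was -1.57 (SE 0.42, limma adjusted p = 0.389) and that against cortex -0.62 (SE 0.42, limma adjusted p = 0.774). Arc, whose RNA travels into dendrites, had 6.78 and 6.49 in the nucleus, against 6.91 and 7.69 in cortex and 7.14 and 7.39 in hippocampus. The nucleus was below the other regions, in mouse 355 with -0.13 against cortex, and the differences were -0.67 against cortex (SE 0.31, limma adjusted p = 0.688) and -0.63 against hippocampus (SE 0.31, limma adjusted p = 0.606). Npas4, which responds to calcium entry and adjusts inhibitory synapses, had 4.08 and 4.57 in the nucleus, against 4.01 and 6.18 in cortex and 4.19 and 5.71 in hippocampus. Its 3 arrays of mouse 355 lay within 0.19 of each other, cortex and hippocampus of mouse 511 were higher, and the regions overlapped. The differences of Npas4 were -0.77 against cortex (SE 0.43, limma adjusted p = 0.732) and -0.63 against hippocampus (SE 0.43, limma adjusted p = 0.723).

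Relative to cortex, 0 of the 10 members passed an adjusted p of 0.05 in limma, and 0.0% of all probe sets did. Without adjustment, 2 members were lower at a p under 0.05, Egr3 and Egr4, beside 4.12% of all probe sets. By the size of the difference within each mouse, 1 member, Egr3, was at least 2-fold lower in the nucleus of both, against 0.859% of all probe sets. In both mice by any amount, 5 members were lower in the nucleus (Fosb, Egr1, Egr3, Egr4 and Arc), against 24.5% of all probe sets. The sizes in the 2 animals were unequal. In mouse 511 the differences of Egr1, Egr4, Arc, Npas4 and Nr4a1 lay between -2.22 and -1.20, and in mouse 355 those of the same genes lay between -0.53 and 0.20. The median of the members was -1.25 in mouse 511 and -0.18 in mouse 355, against 0.037 and 0.01 over all probe sets.

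Against hippocampus, more members were lower in the nucleus and the animals were closer. With limma, 0 of the 10 passed the adjusted threshold, and 0.00242% of all probe sets, a single one that is no member, did. Without adjustment, 6 members were lower at a p under 0.05 (Fosb, Junb, Egr1, Egr3, Egr4 and Nr4a1), against 4.76% of all probe sets. At least 2-fold lower in both mice were 2 members, Egr3 and Nr4a1, against 1.24% of all probe sets, and Egr1 just missed this with a difference of -0.96 in mouse 355. All members other than Fos and Egr2, 8 of 10, were lower in the nucleus of both mice by any amount, against 24.0% of all probe sets and 30.6% of the 20672 probe sets with a mean signal above the median. The median of the members was -1.02 in mouse 511 and -0.69 in mouse 355, against 0.066 and 0.007 over all probe sets. Both comparisons share the nucleus arrays, so they are not independent of each other.

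**Figure D2:**
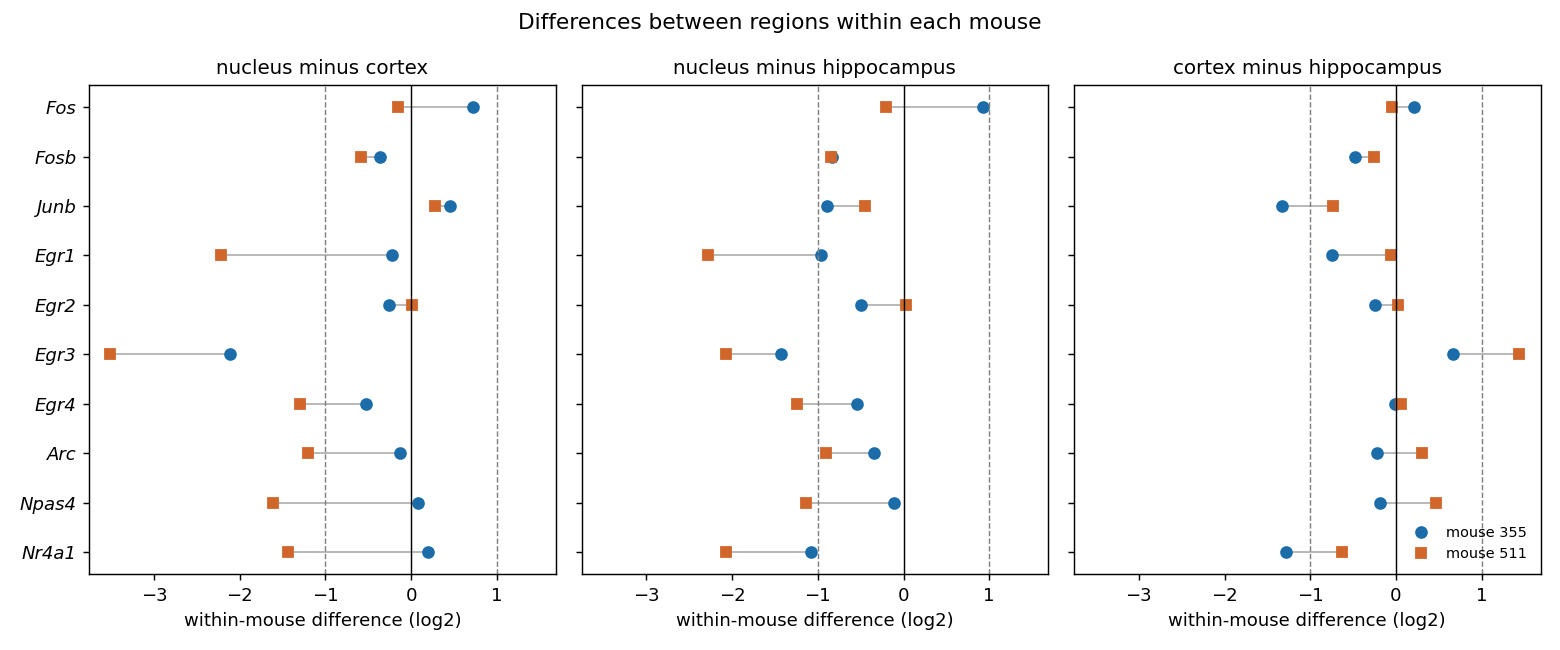
Difference of log2 signal between regions within each mouse (x axis) for each immediate early gene (y axis), with a blue circle for mouse 355, an orange square for mouse 511, a solid line at 0 and dashed lines at a 2-fold difference. Egr3 lies past the dashed line in both mice for nucleus minus cortex (-2.11 and -3.51), and Egr3 and Nr4a1 do so for nucleus minus hippocampus.

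Ranked within each mouse, the nucleus was the lowest of the 3 regions in both animals for 5 members, Fosb, Egr1, Egr3, Egr4 and Arc. This ranking was found in 13.1% of all probe sets and in 18.0% of those above the median signal. The hippocampus was the highest region in both animals for 4 members, Fosb, Junb, Egr1 and Nr4a1, against 10.5% of all probe sets and 13.9% of those above the median. Highest in the nucleus of both mice were 0 members, against 16.5% of all probe sets. The full order of the regions was the same in both animals for 4 members, Fosb, Junb, Egr1 and Egr3, and for 19.7% of all probe sets.

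Between cortex and hippocampus the members differed in both directions. By limma, 0 members passed the adjusted threshold, and 0.0% of all probe sets did. At a p under 0.05 without adjustment, 1 member, Junb, was lower in cortex, against 2.36% of all probe sets, and 1 member, Egr3, was higher in cortex, against 2.38%. The difference was -1.03 for Junb (SE 0.23, limma adjusted p = 0.981) and 1.06 for Egr3 (SE 0.37, limma adjusted p = 0.999). Lower in cortex of both mice by any amount were 4 members, Fosb, Junb, Egr1 and Nr4a1, against 23.9% of all probe sets. Nr4a1 differed by -0.96 over both mice (SE 0.42, limma adjusted p = 0.999), with -1.28 in mouse 355 and -0.63 in mouse 511.

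The arrays of the 2 mice differed in the level of these genes, by as much as 2.18 within a region. With 1 array per region and animal the difference between the mice has no replicate, so the values are given with no test. Animal, capture and amplification cannot be told apart in these values. In cortex, mouse 511 was above mouse 355 by 2.18 for Npas4, 1.36 for Egr1, 1.25 for Egr3, 0.78 for Arc, 0.45 for Fos, 0.18 for Fosb and 0.03 for Nr4a1. In hippocampus it was above by 1.52 for Npas4, 0.71 for Fos, 0.68 for Egr1, 0.48 for Egr3 and 0.26 for Arc. In the nucleus, mouse 511 was below mouse 355 for 9 of the 10 members, all but Npas4, and furthest for Nr4a1 (-1.61), Egr4 (-1.10) and Egr1 (-0.65). Of all probe sets, 50.3% were below in the nucleus of mouse 511. So were 11 of 11 GABAergic markers, 12 of 16 hypothalamic markers and 8 of 9 heat shock genes, lists that are described below. Among other rapidly induced genes 26 of 36 were lower there, among astrocyte markers 4 of 14, and among upstream signalling genes 13 of 28. The median difference of the members, mouse 511 minus mouse 355, was -0.26 in the nucleus, 0.32 in cortex and 0.11 in hippocampus, against -0.003, -0.025 and -0.05 over all probe sets. Egr2 and Egr4 were lower in mouse 511 in all 3 regions, with differences in nucleus, cortex and hippocampus of -0.19, -0.45 and -0.72 for Egr2 and of -1.10, -0.34 and -0.41 for Egr4.

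**Figure D3:**
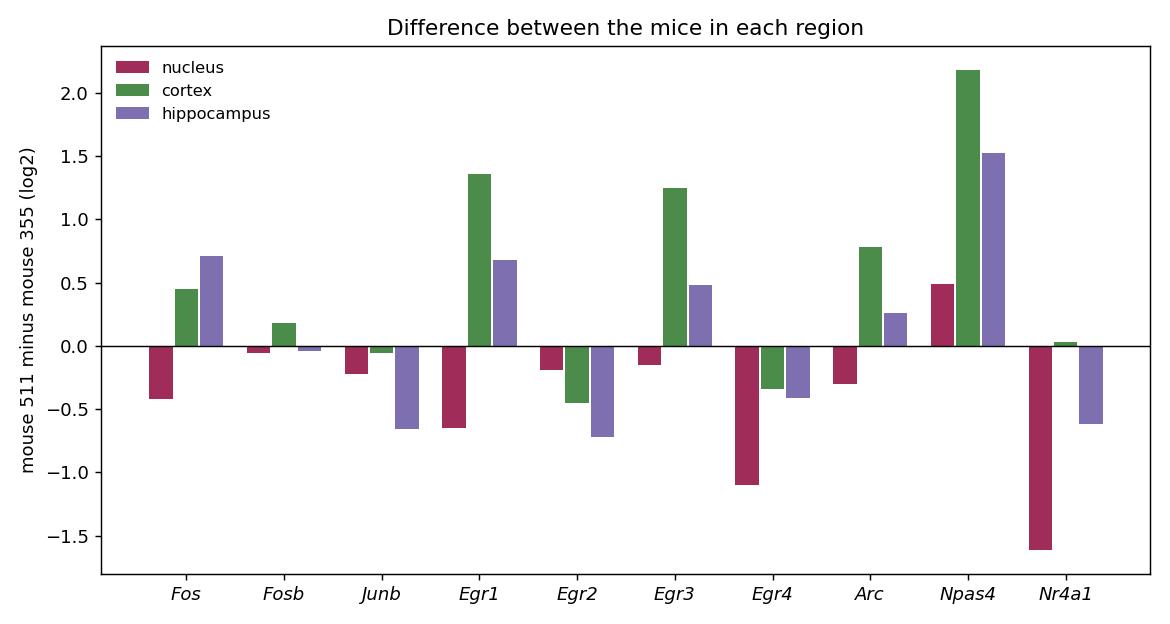
Difference of log2 signal between mouse 511 and mouse 355 (y axis, mouse 511 minus mouse 355) for each immediate early gene (x axis), with bars for the nucleus, cortex and hippocampus, each from 1 array per animal and without an error. Npas4, Egr1 and Egr3 are higher in cortex of mouse 511 (2.18, 1.36 and 1.25), and Nr4a1 and Egr4 are lower in its nucleus (-1.61 and -1.10).

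Most marker genes of telencephalic excitatory neurons and of GABAergic neurons were lower in the nucleus, as were most of the immediate early genes. Excitatory neurons of the telencephalon are represented by 14 measured markers. In both mice the nucleus lay at least 2-fold below cortex for 9 of these markers (0.859% of all probe sets). It lay as far below hippocampus for 11 of the 14 markers (1.24% of all probe sets). The summed linear signal of the 14 markers was 1301 to 1346 in the nucleus, against 6498 to 9720 in cortex and 8277 to 8328 in hippocampus. The defining markers Slc17a7, the vesicular glutamate transporter of these cells, and Neurod6, a transcription factor of theirs, were near the array medians in the nucleus of mouse 355 and mouse 511, with 4.13 and 3.27 for Slc17a7 and 3.13 and 3.26 for Neurod6. Between the animals, 11 of the 14 markers were higher and 3 lower in cortex of mouse 511 than of mouse 355, and the median difference was -0.08 in the nucleus, 0.61 in cortex and 0.16 in hippocampus. For GABAergic markers the nucleus of both mice lay below cortex by 2-fold or more for 7 of 11 and below hippocampus for 6 of 11. The same shares of all probe sets, 0.859% and 1.24%, stand beside these counts. Summed signals of the GABAergic markers were 872 to 1137 in the nucleus, 3242 to 3825 in cortex and 2673 to 4222 in hippocampus. Hypothalamic markers went the other way in their medians, with 1.30 against cortex and 1.72 against hippocampus. In both mice the nucleus was at least 2-fold above cortex for 6 of 16 (0.6% of all probe sets). It was as far above hippocampus for 8 of 16 (1.04% of all probe sets). The 6 were Pmch, Slc17a6, Adcyap1, Npb, Ebf3 and Rmst, which are also among the 8. The study had picked all 6 from these same arrays by a 2-fold rule, so these counts were partly fixed beforehand. The sums of the 16 markers were 3596 to 4316 in the nucleus, 1282 to 1303 in cortex and 381 to 588 in hippocampus. Pmch, the precursor of melanin-concentrating hormone of the lateral hypothalamus, had 10.24 and 9.81 in the nucleus of the 2 mice, against 4.19 and 3.40 in cortex and 3.14 and 2.96 in hippocampus. Slc17a6 encodes the vesicular glutamate transporter that the paper names for the parvalbumin neurons of the nucleus. It had 10.18 and 9.53 there, against 8.24 and 6.24 in cortex and 4.29 and 6.28 in hippocampus. Not all of the 16 were higher in the nucleus. In mouse 355 and mouse 511, Trh differed from cortex by -3.83 and -0.14, Cartpt by 0.0 and -2.96, and Nts by 1.75 and -0.37. Of the genes that define the nucleus, named here outside the rule with their values known, Foxb1 had 5.82 and 4.15 in the nucleus, against 3.84 and 3.62 in cortex and 3.55 and 3.82 in hippocampus, and Pvalb had 7.91 and 7.70, against 7.95 and 5.74 in cortex and 7.0 and 6.78 in hippocampus. Foxb1 was above the other regions in both mice, and Pvalb overlapped with cortex. The part of these cell types in the differences of the immediate early genes was not tested.

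Glial markers also differed between the captured regions. Oligodendrocyte genes summed to 6648 to 7364 in the nucleus, against 4568 to 5880 in cortex and 1629 to 2212 in hippocampus. Of these genes, 10 of 13 were at least 2-fold above hippocampus in both mice, among them Mog and Ermn, against 1.04% of all probe sets. Astrocyte genes had medians of 0.44 against cortex and 0.34 against hippocampus, with 2 of 14 at least 2-fold higher in both mice in each comparison. Of all probe sets, 0.6% and 1.04% were. These 2 were Agt and Itih3, which the study had also picked from these arrays by its 2-fold rule. Microglial genes had medians of -0.39 and -0.50 with 0 of 11 at least 2-fold apart in both mice in either comparison. Endothelial and mural genes had medians of 0.05 and -0.14, also with 0 of 15. Their part in the differences was likewise not tested.

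Other genes known to be induced quickly by stimulation had medians nearer to that of all probe sets. Of 36 measured genes of this kind, among them further AP-1 and Nr4a genes and some Dusp and Klf genes, the median difference was -0.15 against cortex and -0.22 against hippocampus. At an unadjusted p under 0.05 in limma 5 were lower and 1 higher against cortex, where 4.12% and 3.77% of all probe sets were. Against hippocampus 6 were lower and 1 higher, where 4.76% and 4.79% of all probe sets were, and 0 passed after adjustment in either comparison. Nr4a2, a relative of Nr4a1 that dopamine neurons need, had 4.74 and 4.51 in the nucleus of mouse 355 and mouse 511, against 6.13 and 8.37 in cortex and 7.62 and 9.23 in hippocampus. All of its nucleus values were below the other regions, with differences of -2.63 (SE 0.61, limma adjusted p = 0.514) and -3.80 (SE 0.61, limma adjusted p = 0.254). Fosl2, a further AP-1 subunit, had 5.33 and 5.47 in the nucleus, against 5.92 and 6.24 in cortex and 7.64 and 7.28 in hippocampus, with the regions apart in the order also seen for Fosb. Dusp6, a phosphatase that switches off ERK, differed from cortex by -0.34 in mouse 355 and -1.98 in mouse 511, and from hippocampus by -0.35 and -1.06. Ccn2, a matrix protein, differed from cortex by -0.79 in mouse 355 and -3.45 in mouse 511, and from hippocampus by -0.21 and -3.25. For both genes the difference was larger in mouse 511, and the adjusted p values from limma were 0.581 or above.

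Effector genes are a list of activity-regulated genes, many of whose products act at synapses or are secreted. Cartpt on this list is also among the hypothalamic markers. Over 24 measured genes the median was -0.47 against cortex and -0.17 against hippocampus. In both mice the nucleus lay at least 2-fold below cortex for 4 of these and below hippocampus for 3. Of all probe sets, 0.859% and 1.24% did so. Rasgrp1, an activator of Ras, had 5.61 and 4.74 in the nucleus of mouse 355 and mouse 511, against 7.70 and 9.37 in cortex and 8.70 and 9.67 in hippocampus, a difference of -3.36 (SE 0.63, limma adjusted p = 0.433) and -4.01 (SE 0.63, limma adjusted p = 0.246). Plk2, a kinase that weakens synapses after strong activity, had 7.22 and 6.98 in the nucleus, against 8.44 and 9.02 in cortex and 8.88 and 8.77 in hippocampus. Both genes lay lower in every nucleus sample than in any other sample. Homer1, a scaffold of metabotropic glutamate receptors, differed from cortex by -0.57 in mouse 355 and -1.89 in mouse 511, and from hippocampus by -1.42 and -0.82. Lingo1 differed from cortex by -0.71 in mouse 355 and -1.78 in mouse 511, and from hippocampus by -1.01 and -1.65.

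The machinery that carries the signal from the synapse to these promoters also had negative medians in the nucleus. Among 28 measured receptors, kinases and transcription factors of this pathway, the median difference was -0.76 against cortex and -0.74 against hippocampus, close to the medians of the members. At least 2-fold lower in both mice were 6 against cortex and 10 against hippocampus, where 0.859% and 1.24% of all probe sets were. At an unadjusted p under 0.05 in limma 15 were lower in each comparison and 0 higher, with 0 past the adjusted threshold. Of all probe sets, 4.12% were lower at that p against cortex and 4.76% against hippocampus. Elk1, a ternary complex factor, had 7.16 and 6.99 in the nucleus of mouse 355 and mouse 511, against 8.43 and 8.40 in cortex and 9.11 and 9.13 in hippocampus. Its regions did not overlap, in the order hippocampus, cortex, nucleus, and its differences were -1.34 (SE 0.19, limma adjusted p = 0.322) and -2.04 (SE 0.19, limma adjusted p = 0.152). Mef2c, a calcium-dependent transcription factor, differed by -2.41 and -1.57, Grin2a, an NMDA receptor subunit, by -2.02 and -2.50, and Camk2a, a kinase that is also on the list of excitatory markers, by -1.78 and -1.99. Not all of the list was lower in the nucleus. The ternary complex factors Elk4 and Elk3 differed by 0.33 and 0.35 and by 0.03 and -0.21 against cortex and hippocampus. Creb1, which encodes CREB, differed by 0.36 and 0.49.

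Of 14 partners and repressors of the members, the median difference was -0.20 against cortex and -0.33 against hippocampus. Nab2, a corepressor that Egr factors induce and that then silences them, had 5.69 and 5.11 in the nucleus of mouse 355 and mouse 511, against 6.59 and 6.36 in cortex and 7.16 and 6.35 in hippocampus, below the other regions in both mice as Egr1, Egr3 and Egr4 were. The difference was -1.07 (SE 0.23, limma adjusted p = 0.475) and -1.35 (SE 0.23, limma adjusted p = 0.263). Wasf1, an actin regulator that binds Arc, differed from cortex by -0.79 in mouse 355 and -1.89 in mouse 511, and from hippocampus by -1.46 and -1.86. Rxra, a partner of Nr4a1, had opposite signs in the mice against cortex, with 0.29 in mouse 355 and -1.07 in mouse 511, and differed from hippocampus by -0.13 and -1.52. Dlg4, the postsynaptic scaffold PSD-95, differed from cortex by -0.19 in mouse 355 and -0.64 in mouse 511, and from hippocampus by -0.39 and -0.78. Heat shock genes, which respond to stress of tissue during handling, had medians of -0.15 and -0.19 over 9 measured genes, with 0 at least 2-fold lower or higher in both mice. Hspa1b had opposite signs in the mice, with 1.36 in mouse 355 and -0.23 in mouse 511 against cortex and 2.23 and -0.36 against hippocampus.

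**Figure D4:**
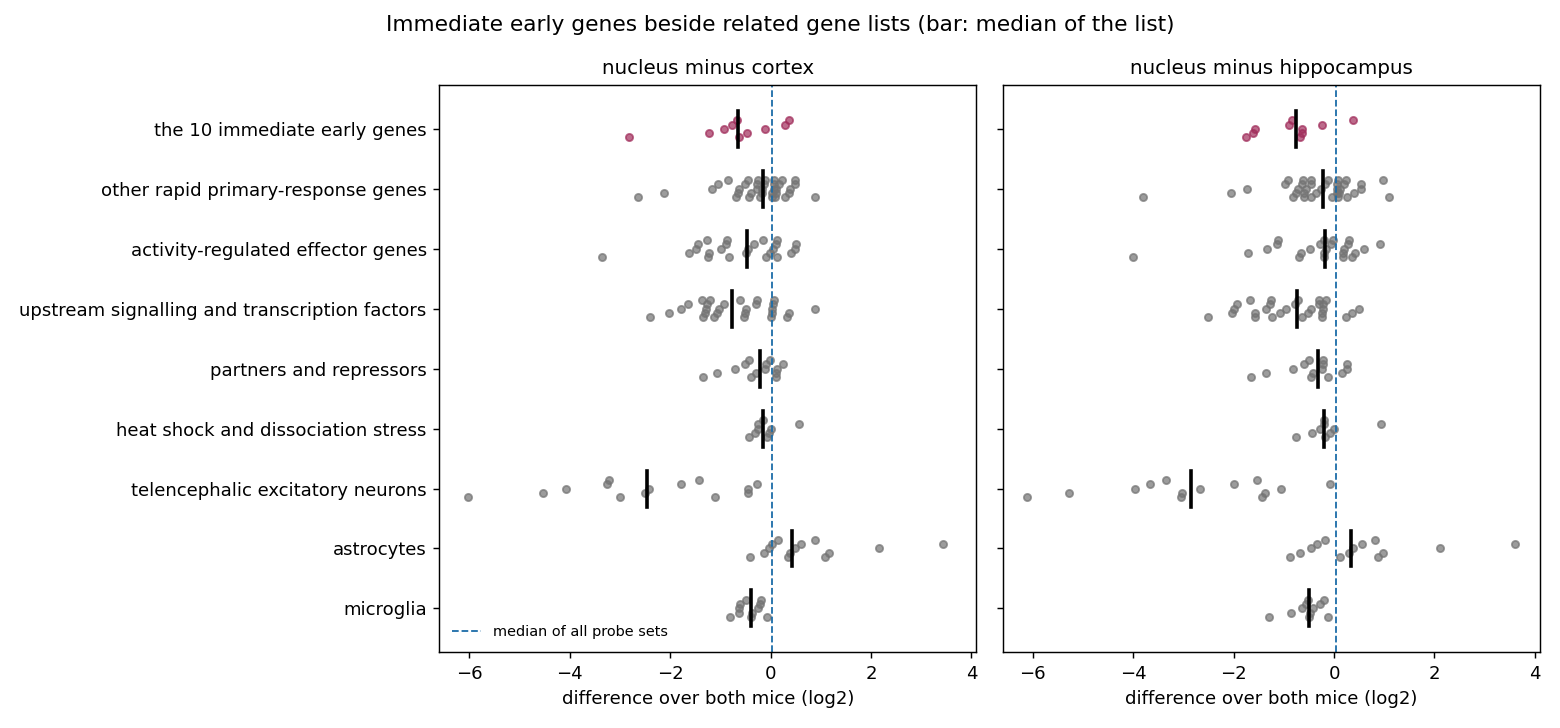
Difference of log2 signal over both mice (x axis) between nucleus and cortex (left) and between nucleus and hippocampus (right) for the 10 immediate early genes, in purple, and for 8 gene lists, in grey, with 1 dot per gene, a black bar at the median of each list and a dashed line at the median of all probe sets. The medians of the members (-0.64 and -0.75) lie near those of the upstream factors (-0.76 and -0.74), and those of the excitatory neuron markers are lower (-2.47 and -2.85).

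Likeness between profiles was described by the root mean square distance of log2 signals, centred for each gene over the 6 arrays, which is 0 for the same pattern. The mean profile of the members was -0.30 and -0.72 in the nucleus of mouse 355 and mouse 511, -0.09 and 0.45 in cortex and 0.27 and 0.39 in hippocampus. Among the members Arc was nearest to it, at 0.130, followed by Fosb at 0.185, and Egr3 was furthest, at 0.898. Of all pairs of members, Fosb and Arc were most alike, at 0.262, and Junb and Egr3 least, at 1.407. The genes outside the set that were nearest to the mean profile were Jak1 (0.047), Mgat4b (0.049), Yae1d1 (0.075), Septin3 (0.087) and Tceal6 (0.090). They were picked as the smallest distances among all other genes, so their lying closer than any member is no comparison with the members. The points of a profile are 6 arrays of 2 animals, and the distances are given as a description.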

How the data were processed

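The samples were 6 Affymetrix Mouse Gene 2.0 ST arrays of laser-captured tissue, with RNA amplified by NuGEN Ovation Pico. The authors normalized the arrays with RMA in Affymetrix Expression Console, and deposited a log2 signal for each of 41345 probe sets, 190 controls included. The submitters' processing notes also name R 2.14.2, limma and Partek. For the genome build and annotation, nothing is stated in the sources used here. Raw array intensities are not analysed here, and the number of arrays limits the precision.

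The deposited values of all 6 arrays were fitted with limma (version 3.58.1, R 4.3.3), with region and mouse as fixed terms, 2 residual and 2.769 prior degrees of freedom, and Benjamini-Hochberg adjustment over all probe sets (threshold 0.05). The mice pair the arrays because the regions came from the same animals, and the mouse differences correlated between regions at 0.079 (nucleus and cortex), 0.059 (nucleus and hippocampus) and 0.060 (cortex and hippocampus) across probe sets, which are not independent. Since mouse is a fixed term, the p-values rest on how far the regional differences disagree between the 2 animals. A prior spread drawn from all probe sets enters them as well. With 2 animals, they are a weak guide to the spread among mice. The procedure was tested on simulated data.

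Symbols came from the array annotation, and all 10 members matched RefSeq GRCm38.p6 gene IDs. Gene lists are described by counts and medians. The members and lists were chosen with earlier results of these data known. Genes were named by a rule: all members, up to 4 genes of each list with the largest mean difference of the nucleus from the other regions, and the 5 genes nearest in profile. Some further list genes, such as Npb, Ebf3, Trh, Elk4 and Creb1, were named outside this rule with their values known. Alternatives were no block, a random block, each mouse or array left out, other scalings, probe set filters, variance settings and fold thresholds. The background among probe sets above the median signal was added after seeing the data. Figures were drawn with Python 3.11.15, numpy 2.4.6, pandas 2.3.3 and matplotlib 3.10.9.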

Additional observations from a re-analysis of the deposited data

Results flagged for a closer look

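Egr1 differed between the mice in opposite directions in the nucleus and in the other regions. Mouse 511 minus mouse 355 amounted on the log2 scale to -0.65 for the nucleus, 1.36 for cortex and 0.68 for hippocampus. Each value rests on 1 array per animal, and the difference between the regions was not tested.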

How the results depend on the processing

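Under every alternative with a test, 0 of the 10 members passed an adjusted p of 0.05 in any comparison. The adjusted p of Egr3 ranged over 16 alternatives between 0.125 and 0.851 against cortex and between 0.147 and 0.701 against hippocampus. Without mouse as a block, limma called 6 probe sets for nucleus against cortex, 20 for nucleus against hippocampus and 0 for cortex against hippocampus, and the adjusted p of Egr3 was 0.258 and 0.316 against cortex and hippocampus. With the block, the counts were 0, 1 and 0, and with mouse as a random block 6, 20 and 0. Among probe sets above the median they were 1, 3 and 0, and among those of 1 gene symbol 8, 34 and 0, and in the other fits at most 1. None of these was a member. Neither scaling moved the median of all probe sets by 0.1. The differences of single members changed sign in 13 of 180 values with an array left out. A comparison that does not use the array left out kept its values. With a mouse left out, which has no test, 11 of 60 changed sign. Under the other alternatives 0 of 300 did, but among these only the scalings could alter a difference. The remaining settings left the differences as they were by construction, so most of the 300 could not change sign.

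Leaving out a mouse or an array moved counts and medians. Where a comparison lost a mouse or an array, the 2-fold count rested on the other mouse alone, a looser rule than both mice. The share of all probe sets was not computed under that rule or at the other fold thresholds. The counts of members below therefore have no background beside them. The members at least 2-fold lower against cortex numbered 1 to 6, with 6 without mouse 355, its cortex or its nucleus. The median of the members against cortex lay between -1.25 without mouse 355 and -0.18 without mouse 511. Against hippocampus the members at least 2-fold lower numbered 2 to 5, with 5 without mouse 355, its hippocampus or its nucleus, and the median of the members lay between -1.15 and -0.63. For cortex against hippocampus, 0 to 2 members were at least 2-fold lower and 0 to 1 higher, and the median lay between -0.40 and 0.24. With 1.5-fold in both mice, 4 members were lower in the nucleus than in hippocampus, and 2 were lower and 1 higher in cortex than in hippocampus, whereas with 3-fold 0 were lower in the nucleus than in hippocampus.

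Single members turned round with mice or arrays left out. Nucleus minus cortex lay between -0.32 and 0.07 for Egr2, -0.22 and 0.79 for Fos, -1.44 and 0.20 for Nr4a1, and -1.61 and 0.08 for Npas4. Nucleus minus hippocampus lay between -0.50 and 0.03 for Egr2, -0.20 and 0.93 for Fos, and -1.30 and 0.05 for Npas4. Cortex minus hippocampus lay between -1.07 and 0.27 for Egr1, -0.31 and 0.09 for Egr2, -0.26 and 0.43 for Fos, -0.18 and 0.23 for Egr4, -0.36 and 0.44 for Arc, and -0.44 and 0.73 for Npas4. With 2 animals and 1 array per region, no spread within an animal is known.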
